A study of Mus musculus with 8 samples.

Results

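Toll-like receptors and the proteins that work beside them were followed through the single cells of the mouse colonic lamina propria. The members were 9 of the 16889 genes in the UMI (unique molecular identifier) table, taken by name: Cd14, Ly96, Tlr2, Tlr4, Tlr7, Tlr9, Tlr13, Nod2 and Myd88. Viable Cd11b+ cells positive for Ccr2, Cd64 or both were sorted from the colon of 8 female CD98hcΔCX3CR1 littermates, 6 to 12 weeks old per the methods of the study, and each mouse had its own capture well and 3′ library. All mice carried floxed CD98hc alleles (gene Slc3a2) and a tamoxifen-inducible Cre with YFP in the Cx3cr1 locus, so only Cx3cr1-expressing cells and their progeny can lose the gene. The 4 control mice received corn oil and the 4 cKO mice received tamoxifen in corn oil (100 µl at 20 mg/ml) on 5 consecutive days, with the readout at day 7. Effects of tamoxifen and of the deletion cannot be told apart, because no mouse received tamoxifen without carrying the alleles.

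The filters of the study left 3213 of 5947 barcodes, 1863 in control and 1350 in cKO mice, with 83 to 724 cells and 497531 to 3762314 UMIs per mouse. Control mouse 3 and cKO mouse 5 held fewer than 100 cells each. A doublet caller, run on each mouse alone, marked 22 of the 83 cells of cKO mouse 5 and 4 to 8 cells in each other mouse. Whether these 22 cells are true doublets was not tested. The same barcode occurred in more than 1 library for 25 barcodes, 8 of them among the cells kept. Cells were grouped into 9 clusters without use of the members and were named only where at least 3 of the 10 leading genes were markers of that cell type. This gave 673 monocyte-like, 1129 macrophage-like, 525 dendritic cell-like, 180 lymphoid-like and 86 stromal-like cells. A cluster of 371 cells led by Ccl24 and Saa3 and another of 249 cells led by Cebpb and Dusp2 stayed unnamed. The labels describe the cells as monocytes and macrophages, but defining markers of dendritic, lymphoid and stromal cells were present. Slc3a2 averaged 337 ± 117 CPM in control and 320 ± 27.9 CPM in cKO mice (SD, n = 4 each; CPM, UMIs of the gene per 1000000 UMIs summed), and its log2 fold change within groups of cells ran from -1.01 ± 0.28 in the Ccl24/Saa3 cluster (713 ± 153 CPM, n = 2, against 348 ± 39.4 CPM, n = 3; edgeR adjusted p = 0.112) to 0.38 ± 0.26 in lymphoid-like cells (adjusted p = 0.816). A 3′ count does not show whether an upstream part of the gene was excised.

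These receptors recognise conserved parts of microbes. CD14 hands lipopolysaccharide (LPS) of Gram-negative bacteria to TLR4, which binds it only together with MD-2, the product of Ly96, and TLR2 recognises bacterial lipoproteins at the cell surface. TLR7, TLR9 and TLR13 sense single-stranded RNA, unmethylated CpG DNA and bacterial ribosomal RNA in endosomes, and NOD2 senses muramyl dipeptide in the cytosol. The adaptor MYD88 carries the signal of these Toll-like receptors to NF-κB, whereas NOD2 signals through RIPK2. In the healthy colon, resident macrophages arise from blood monocytes and are known to respond weakly to such ligands.

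The 250 bases upstream of the RefSeq start were at hand for 5 of the 9 members (Tlr2, Nod2, Tlr9, Myd88 and Tlr13) and were searched on both strands for motifs of 4 kinds of factor. The interferon-stimulated response element (ISRE), spelled GAAA, any 2 bases and GAAA, occurred in 2.97% of 32817 mouse promoters of that length, and of these 5 members in Myd88. The NF-κB motif in a narrow spelling, GGG, any 2 bases and TTTCC (1.41% of promoters), and the PU.1 motif GAGGAAGT (2.44%) occurred in none of the 5. The wider κB consensus (5.00% of promoters), which shares some matches with the narrow spelling and was searched after the sequences were seen, occurred in Tlr2, and the AP-1 motif TGAGTCA (4.46%) occurred in Tlr9, on the opposite strand. Tlr2 is shown as the member with a promoter at hand that was called between cKO and control mice in all cells summed, and Myd88 for the ISRE. Both runs are given 5′ to 3′ on the strand of the gene (GRCm38.p6, minus strand), the Myd88 run from chr9:119340019-119340268 and the Tlr2 run from chr3:83841609-83841858, with the ISRE of Myd88 and the κB match of Tlr2 in capitals. They began 40 and 172 bases before the start. The Myd88 window lies within the Ensembl extent of the gene and the Tlr2 window overlaps its 5′ end, since the start sites of the annotations differ.
Myd88: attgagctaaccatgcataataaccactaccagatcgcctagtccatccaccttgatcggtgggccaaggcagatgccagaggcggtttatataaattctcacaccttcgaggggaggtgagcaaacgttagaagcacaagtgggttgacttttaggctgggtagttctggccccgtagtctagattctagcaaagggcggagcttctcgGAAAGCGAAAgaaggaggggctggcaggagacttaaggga
Tlr2: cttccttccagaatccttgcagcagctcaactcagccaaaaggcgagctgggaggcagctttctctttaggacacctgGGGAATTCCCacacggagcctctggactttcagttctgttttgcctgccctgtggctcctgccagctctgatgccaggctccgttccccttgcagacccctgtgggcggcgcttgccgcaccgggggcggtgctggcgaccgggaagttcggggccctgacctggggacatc
A match of letters is a description of these windows and was not tested for binding.

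When the levels were ordered by cell type, the members differed mainly in whether they were low in dendritic cell-like cells. Cd14, Ly96, Tlr2, Tlr4, Tlr7 and Tlr13 were high in monocyte-like cells, macrophage-like cells and both unnamed clusters, and low in dendritic cell-like and lymphoid-like cells. Stromal-like cells were left out of this order, and Ly96 and Tlr4 were found in them as well. Myd88 and Nod2 were not lower in dendritic cell-like than in macrophage-like cells. In lymphoid-like cells, the mean of Myd88 was lower than in macrophage-like cells (34.5 against 108 CPM), and Nod2 gave only 6 UMIs. Tlr9 was at the limit of detection everywhere. The level of a member was its CPM in the summed cells of a mouse and cell type, from mice with at least 20 cells of that type.

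Cd14, the LPS-binding co-receptor, averaged 2356 CPM in the Ccl24/Saa3 cluster, 1368 CPM in monocyte-like cells, 911 CPM in the Cebpb/Dusp2 cluster, 713 CPM in macrophage-like cells, 79.1 CPM in dendritic cell-like cells and 39.0 CPM in lymphoid-like cells. The step from macrophage-like to dendritic cell-like cells was 3.27 ± 0.72 on the log2(CPM + 1) scale (SD within 7 mice) and had the same direction in 7 of 7 mice. Between the Cebpb/Dusp2 cluster and macrophage-like cells the mean difference of 0.25 ± 0.59 (6 mice) was within the spread between mice. Within dendritic cell-like cells, a graph-based clustering set apart cells led by Cd209a, with 158 ± 40.6 CPM of Cd14 (SD, n = 3), from cells led by Xcr1, with 20.6 ± 7.12 CPM (SD, n = 4). For Tlr2 the means were 59.8 ± 41.0 and 9.98 ± 4.19 CPM, for Myd88 160 ± 3.57 and 94.6 ± 9.25 CPM, and for Nod2 15.6 ± 3.35 and 9.38 ± 2.67 CPM (same n), all without a test.

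Tlr2, the lipoprotein receptor, followed the same order of means, from 403 CPM in the Ccl24/Saa3 cluster and 326 CPM in monocyte-like cells to 188 CPM in the Cebpb/Dusp2 cluster, 168 CPM in macrophage-like cells, 26.5 CPM in dendritic cell-like cells and 12.3 CPM in lymphoid-like cells. Ly96, which encodes MD-2, was level across the 4 myeloid groups, between 48.3 and 61.6 CPM, and fell to 20.2 CPM in lymphoid-like and 7.59 CPM in dendritic cell-like cells. None of the 3 differences of Ly96 between neighbouring myeloid groups exceeded the spread between mice. In the 86 stromal-like cells pooled, Ly96 stood at 44.7 CPM (19 UMIs) and Cd14 at 23.5 CPM (10 UMIs). A Ly96 UMI was found in 18.6% of them and a Tlr4 UMI in 5.81%, against 19.9% and 8.86% of macrophage-like cells.

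Tlr4, the LPS receptor, was sparse, with 25.8 CPM in monocyte-like cells, 19.8 CPM in macrophage-like cells, 18.4 CPM in the Ccl24/Saa3 cluster, 17.5 CPM in the Cebpb/Dusp2 cluster, 5.24 CPM in lymphoid-like cells and 2.33 CPM in dendritic cell-like cells. Of its 5 neighbouring steps, none exceeded the spread, but the ends did, at 3.01 ± 0.92 on the log2 scale in 6 of 6 mice. The endosomal receptors Tlr7 and Tlr13 were each set against macrophage-like cells by pooled level, and the difference between both genes was not tested. Mice were pooled, so the intervals cover counting error and not the spread between mice. Tlr7 gave 3 UMIs in 4976275 UMIs of dendritic cell-like cells, a pooled level 0.0212 times that of macrophage-like cells (95% exact counting interval 0.00432 to 0.0631). Tlr13 held 6.77 CPM in dendritic cell-like cells, a pooled level 0.289 times that of macrophage-like cells (0.201 to 0.409). It gave 0 UMIs in 752897 UMIs of lymphoid-like cells, so that its pooled level there was at most 0.170 times that of macrophage-like cells (upper end of the 95% exact counting interval). Tlr7 gave 4 UMIs in lymphoid-like cells, at 0.187 times (0.0503 to 0.488), an interval that overlaps that of Tlr13.

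Nod2, the muramyl dipeptide sensor, averaged 5.46 ± 3.78 CPM in macrophage-like cells (SD, n = 8), 13.1 CPM in monocyte-like cells, 11.3 CPM in dendritic cell-like cells, 7.71 CPM in lymphoid-like cells, 15.6 CPM in the Ccl24/Saa3 cluster and 25.9 ± 23.7 CPM in the Cebpb/Dusp2 cluster (SD, n = 6), the last from 11 UMIs in these 6 mice. None of its neighbouring steps exceeded the spread, and none of 86 stromal-like cells held a Nod2 UMI, so that up to 3.49% of such cells could hold one. Myd88, the shared adaptor, stood at 156 CPM in monocyte-like cells and in the Ccl24/Saa3 cluster, 115 CPM in dendritic cell-like cells, 108 CPM in macrophage-like cells, 81.0 CPM in the Cebpb/Dusp2 cluster and 34.5 CPM in lymphoid-like cells. Tlr9, the CpG DNA receptor, gave 15 UMIs in 15 of 3213 cells, 10 of them in macrophage-like cells, and did not pass the filter of the fits. Over all 9 members, 33 of 45 neighbouring steps lay within 1 SD of the within-mouse differences. None of the 54 comparisons (45 neighbours and 9 pairs of ends) passed a two-sided exact sign-flip test after Benjamini-Hochberg adjustment, where the smallest p was 0.0156, the smallest that 7 mice allow, and the smallest adjusted p was 0.141, so the number of mice limited this test.

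**Figure D1:**
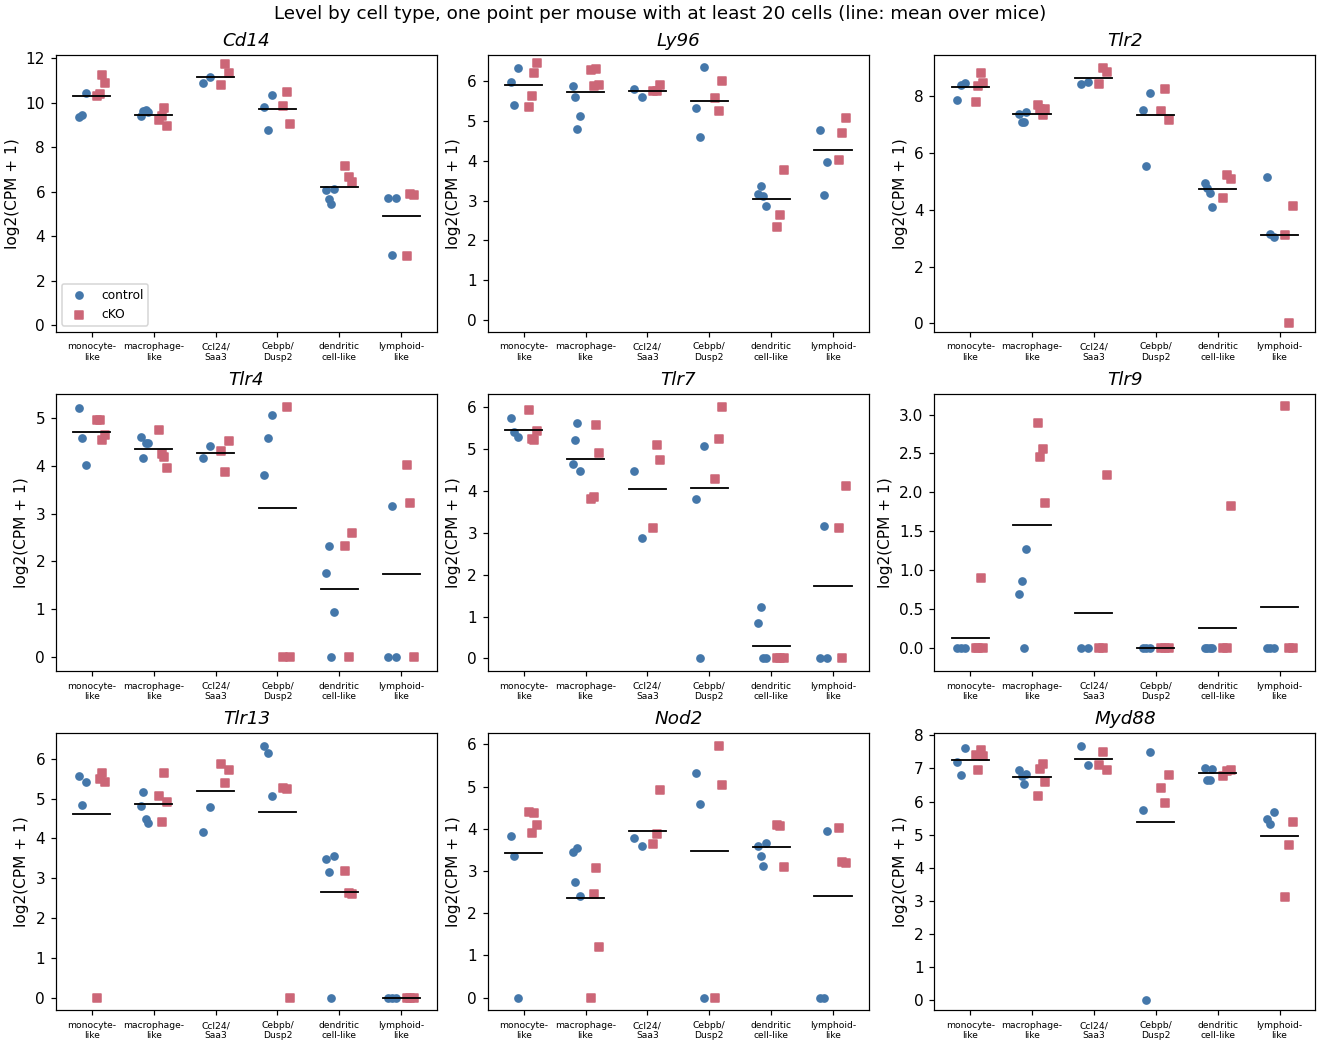
Level of each member, as log2(CPM + 1), in 6 groups of cells (x axis), with 1 point per mouse holding at least 20 cells of that group (blue circles, control; red squares, cKO) and a line at the mean over mice. Cd14, Tlr2, Ly96 and Tlr7 sit lower in dendritic cell-like than in macrophage-like cells in every mouse that has both, whereas Myd88 lies at like heights in both.

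The contrast of dendritic cell-like with macrophage-like cells of the same mice was tested with edgeR's quasi-likelihood test across all genes, with the mouse as a block. Of the 8 members tested, 6 were lower in dendritic cell-like cells, where 17.0% of 11340 genes were called lower. The log2 fold changes were -5.04 ± 0.44 for Tlr7, -3.35 ± 0.19 for Cd14, -2.80 ± 0.36 for Tlr4, -2.70 ± 0.19 for Tlr2, -2.67 ± 0.23 for Ly96 and -1.79 ± 0.29 for Tlr13 (SE), with edgeR adjusted p-values of at most 3.57e-07. The Tlr7 value rests on 3 UMIs in dendritic cell-like cells and depends on the prior count of the fit. Nod2 (0.81 ± 0.36, adjusted p = 0.0771) and Myd88 (-0.01 ± 0.15, adjusted p = 0.968) did not pass. The median over the 8 members was -2.69, beside -0.01 over all genes. Nod2 was called without control mouse 1 (1.18, adjusted p = 0.0451).

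Monocyte-like cells differed from macrophage-like cells in fewer members. In the same fit, Tlr2, Cd14 and Nod2 were higher in monocyte-like cells, 3 of 8 members, where 8.33% of 11340 genes were called higher. Tlr2 was 0.87 ± 0.15 higher on the log2 scale (SE, edgeR adjusted p = 2.36e-06) and Cd14 was 0.77 ± 0.16 higher (adjusted p = 0.000104). The within-mouse differences of Tlr2 in log2(CPM + 1) were 0.52, 1.30 and 1.002 in control mice 1, 2 and 4 and 0.09, 0.81, 1.51 and 0.93 in cKO mice 5 to 8. All 7 mice thus had more Tlr2 in monocyte-like cells, and the conditions overlapped.

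For Cd14 the difference is given by condition. It concerns RNA, and by flow cytometry the study found CD14 protein at similar levels in monocytes and macrophages. Monocyte-like cells held 661, 686 and 1401 CPM in control mice 1, 2 and 4 and 1246, 1334, 2388 and 1858 CPM in cKO mice 5 to 8. Macrophage-like cells held 680, 792, 825 and 771 CPM in the 4 control mice and 600, 664, 876 and 498 CPM in the 4 cKO mice. In every cKO mouse the monocyte-like cells were thus the higher of both, by 1.05, 1.005, 1.45 and 1.90 on the log2(CPM + 1) scale, while the differences in the control mice were -0.04, -0.21 and 0.86. In control mice alone, the fitted difference of Cd14 was 0.09 (edgeR adjusted p = 0.811), and that of Tlr2 was 0.86 (adjusted p = 5.12e-05).

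Nod2 was 1.07 ± 0.39 higher in monocyte-like cells (SE, edgeR adjusted p = 0.0434), from 47 UMIs against 34, and the call was lost without any 1 of the 4 cKO mice (0.78 to 1.02, adjusted p = 0.0596 to 0.230). With control mice alone the fitted difference was -0.026 (adjusted p = 0.995). Control mice had 13.1, 9.15 and 0 CPM in monocyte-like cells, and cKO mice had 19.9, 13.8, 19.8 and 16.1 CPM. Myd88 (0.40 ± 0.15, adjusted p = 0.0522), Tlr7 (0.50 ± 0.23, adjusted p = 0.129), Tlr4 (0.37 ± 0.26, adjusted p = 0.357), Tlr13 (0.36 ± 0.24, adjusted p = 0.325) and Ly96 (0.14 ± 0.17, adjusted p = 0.648) did not pass. The macrophage-like cells came from 3 clusters, 1 of them (267 cells) at 0.243 of the median depth of its mice, and Tlr2, Cd14 and Nod2 stayed called without that cluster. Control mice gave 293, 138 and 333 cells to these 3 clusters and cKO mice gave 41, 129 and 195. Myd88 was called without control mouse 2 (0.51, adjusted p = 0.0138) or cKO mouse 6 (0.47, adjusted p = 0.0383), and Tlr7 without cKO mouse 7 (0.72, adjusted p = 0.0402).

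The question of the study was what changes in these cells when CD98hc is deleted, and for the members it was first asked of all cells summed per mouse. Cd14, Tlr2 and Ly96 were higher in cKO mice, 3 of 8 members tested, where 2.99% of 11387 genes were called higher. For the same 3 members every cKO mouse lay above every control mouse, as it did for 4.00% of the genes tested. Tlr7, Tlr13, Tlr4, Nod2 and Myd88 did not pass, and the median over the 8 members was 0.85, beside -0.03 over all genes. Over all genes, 341 were called higher and 169 lower, and without TMM scaling 270 and 261, where the median moved to -0.13 and Cd14 had an adjusted p of 0.0536. Without cKO mouse 5 Tlr13 was called (0.90, adjusted p = 0.0420), and without cKO mouse 6 Tlr7 was (1.18, adjusted p = 0.0357).

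Cd14 (chromosome 18, 36725067 to 36726798, minus strand, GRCm38) stood at 506, 397, 484 and 842 CPM in control mice 1 to 4 and at 858, 892, 2009 and 1009 CPM in cKO mice 5 to 8. The groups did not overlap, although the highest control and the lowest cKO mouse were close. The log2 fold change was 1.21 ± 0.31 (SE, edgeR adjusted p = 0.0456).

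Tlr2 (chromosome 3, 83836272 to 83841767, minus strand) stood at 127, 96.0, 115 and 162 CPM in control and 209, 207, 358 and 225 CPM in cKO mice, with a log2 fold change of 1.11 ± 0.22 (SE, edgeR adjusted p = 0.0199). Ly96 (chromosome 1, 16688051 to 16709611, plus strand) stood at 39.1, 28.4, 20.4 and 31.0 CPM in control and 58.3, 41.7, 60.3 and 57.3 CPM in cKO mice, with a log2 fold change of 0.91 ± 0.20 (SE, adjusted p = 0.0258). The groups did not overlap in either. For Cd14 and Tlr2 the highest value was that of cKO mouse 7, and without it Tlr2 stayed called (0.85, adjusted p = 0.0435) while Cd14 (0.80, adjusted p = 0.116) and Ly96 (0.83, adjusted p = 0.0920) did not. Cd14 was also lost without control mouse 1, 2 or 3 or cKO mouse 6 or 8 (adjusted p = 0.0561 to 0.149), Ly96 without control mouse 2 or cKO mouse 8 (0.104 and 0.0705), and Tlr2 without control mouse 1 or 2 (0.0652 and 0.0756).

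Tlr7 (chromosome X, 167304929 to 167330558, minus strand) gave 16.5, 17.4, 18.7 and 10.4 CPM in control and 42.2, 16.3, 32.6 and 26.7 CPM in cKO mice, and cKO mouse 6 lay among the control mice (0.98 ± 0.28, SE, adjusted p = 0.0722). Tlr13 (chromosome X, 106143204 to 106160493, plus strand) gave 21.5, 19.9, 13.6 and 18.8 CPM in control and 18.1, 29.6, 41.0 and 28.0 CPM in cKO mice, and here cKO mouse 5 lay among the control mice (0.78 ± 0.23, SE, adjusted p = 0.0759). Tlr4 (chromosome 4, 66827584 to 66930284, plus strand) averaged 11.8 ± 3.29 CPM in control and 18.1 ± 2.998 CPM in cKO mice (SD, n = 4 each; adjusted p = 0.179). Nod2 (chromosome 8, 88647315 to 88688474, plus strand) averaged 9.14 ± 1.54 and 12.5 ± 2.99 CPM (SD, n = 4 each; adjusted p = 0.211). Myd88 (chromosome 9, 119335934 to 119341411, minus strand) averaged 112 ± 15.6 and 124 ± 25.2 CPM (SD, n = 4 each; adjusted p = 0.450). Tlr9 (chromosome 9, 106222598 to 106226883, plus strand) had 1 UMI in each control mouse, or 0.266 to 1.70 CPM, and 1.21 to 2.01 CPM in the cKO mice.

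**Figure D2:**
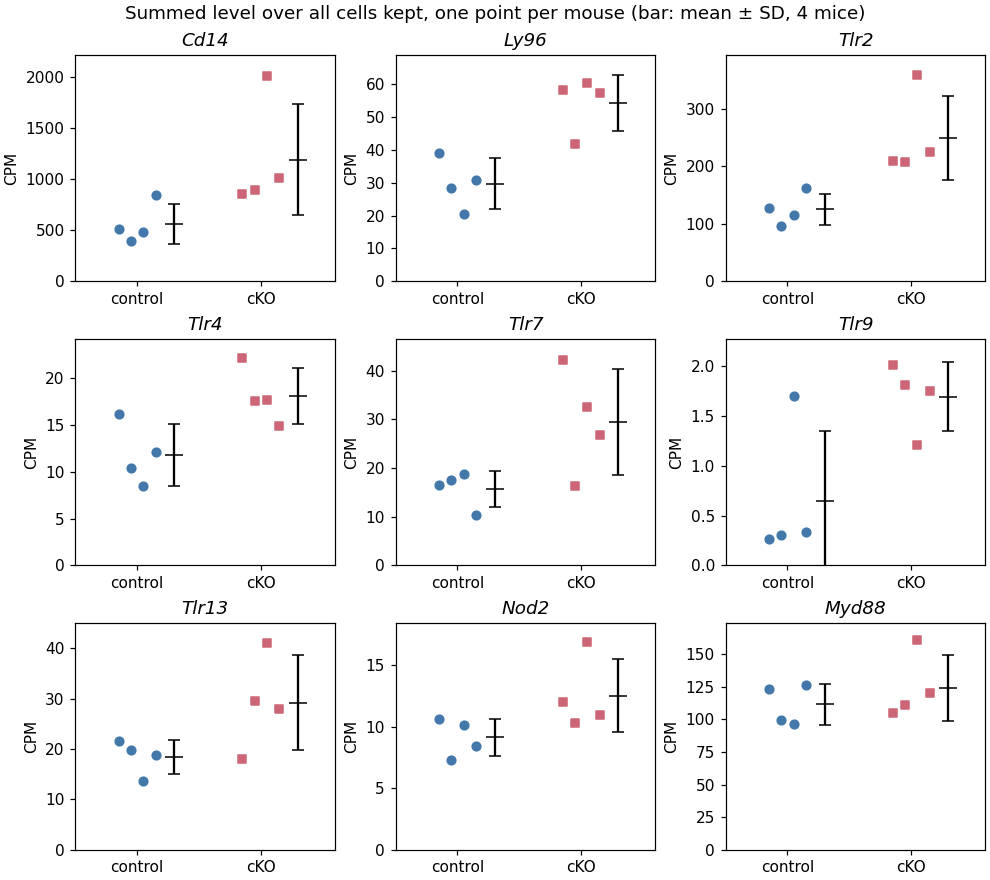
CPM of each member (y axis, from 0) summed over all cells kept of a mouse, with 1 point per mouse (blue circles, 4 control; red squares, 4 cKO) and the mean ± SD, where the lower bar of Tlr9 in control mice ends at the axis. For Cd14, Ly96 and Tlr2 the lowest cKO mouse lies above the highest control mouse, and the other 6 members overlap.

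The mix of cells in the sort moved together with these values. Monocyte-like cells made up 7.06 to 12.4% of the cells of control mice and 24.1 to 46.5% of those of cKO mice, and dendritic cell-like cells, which hold little Cd14, Tlr2 and Ly96, made up 19.8 to 27.1% and 4.75 to 9.68%. The summed level of the 8 monocyte markers was 1638 to 3338 CPM in control and 7071 to 10388 CPM in cKO mice, and that of the 15 macrophage markers was 11952 to 24082 and 9967 to 16258 CPM. In a sum over cells, more cells of a kind and more RNA per cell cannot be told apart. The members were therefore read again at 1 fixed mix of cell types, the mean over the 8 mice. Every cell type of every mouse entered this reading, also types with fewer than 20 cells. Such types went down to 6 monocyte-like and 2 lymphoid-like cells in control mouse 3. In cKO mouse 5 they went down to 7 dendritic cell-like cells and 1 stromal-like cell. At that mix, Tlr2 was 189 ± 27.1 CPM in control and 193 ± 22.2 CPM in cKO mice (SD, n = 4 each; two-sided exact permutation p = 0.83). Cd14 was 689 ± 111 and 893 ± 226 CPM (exact permutation p = 0.114), and Ly96 was 36.5 ± 7.54 and 47.8 ± 7.83 CPM (exact permutation p = 0.114), where 4 mice against 4 allow a smallest p of 0.0286. Without dendritic, lymphoid and stromal-like cells, 0 of 8 members were called, with Tlr2 at 0.57, Cd14 at 0.59 and Ly96 at 0.41 on the log2 scale.

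Within cell types, 0 of the 8 members passed in any of the 6 groups of cells that could be tested with edgeR. The share of genes called in either direction was 1.27% in monocyte-like cells, 0.891% in macrophage-like cells, 0.556% in the Ccl24/Saa3 cluster, 0.317% in dendritic cell-like cells, 0.0970% in the Cebpb/Dusp2 cluster and 0.0617% in lymphoid-like cells. Cd14 in monocyte-like cells was the member value nearest to the threshold, at 1.004 ± 0.30 on the log2 scale (SE, adjusted p = 0.0823), and cKO mice 5 and 6 lay below control mouse 4. It was called under limma-voom (adjusted p = 0.00395), without the filter on low counts (0.000685) and with the cell type fitted alone (0.0197). It was also called without doublets (0.0453), without control mouse 4 (0.00629) and without cKO mouse 5 (0.0363). The fit without doublets may repeat the fit without cKO mouse 5, which held 20 monocyte-like cells, the fewest that a sum may hold. Cd14 was not called under DESeq2 (0.0638), and clusters built on all genes gave 0.59 (0.635). Within monocyte-like cells the marker lists moved with the condition as well, since the 8 monocyte markers summed to 8142 to 12380 CPM in control and 15703 to 18172 CPM in cKO mice and the 15 macrophage markers to 3858 to 9577 and 1323 to 2701 CPM. The control ends of 8142 and 9577 CPM were those of the 6 cells of control mouse 3, which were not in the fit. The other control mice held 10833 to 12380 CPM of the monocyte and 3858 to 6064 CPM of the macrophage markers. The part of these markers in the Cd14 value was not tested. In macrophage-like cells Cd14 was at -0.25 ± 0.27 (SE, adjusted p = 0.855).

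At an unadjusted p under 0.05 lay 4 of the 48 member values within cell types (8.33%), near the 7.72% of values over all genes, so this count is not a result about the members. Beside Cd14 in monocyte-like cells they were 3 values, given here as a description. Ly96 in macrophage-like cells was 57.4, 47.6, 26.8 and 34.1 CPM in control and 77.4, 58.2, 78.5 and 59.1 CPM in cKO mice (0.52 ± 0.25, SE, adjusted p = 0.496). Tlr13 in the Ccl24/Saa3 cluster was at 1.08 ± 0.49 (SE, adjusted p = 0.598), and Cd14 in dendritic cell-like cells at 0.78 ± 0.36 (SE, adjusted p = 0.705). Those dendritic cell-like cells held 42.4 to 68.8 CPM of Cd14 in 4 control mice and 86.1 to 141 CPM in cKO mice 6, 7 and 8.

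The difference between these effects of Cd14 was itself tested, as the cKO effect in monocyte-like less that in macrophage-like cells. It was 1.25 ± 0.40 (SE, edgeR adjusted p = 0.598), and 0 of 8 members were called, where 0.0353% of 11340 genes were. At an unadjusted p under 0.05 were 2 of 8 members (Cd14 and Nod2) and 5.32% of all genes, and without the filter on low counts the difference of Cd14 was called (adjusted p = 0.0143). Nod2 was at 1.26 ± 0.66 in monocyte-like and at -1.07 ± 0.66 in macrophage-like cells (adjusted p = 0.512 and 0.649), on 34 to 47 UMIs per cell type in all. The other members lay between -0.29 and 0.53 in both cell types.

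**Figure D3:**
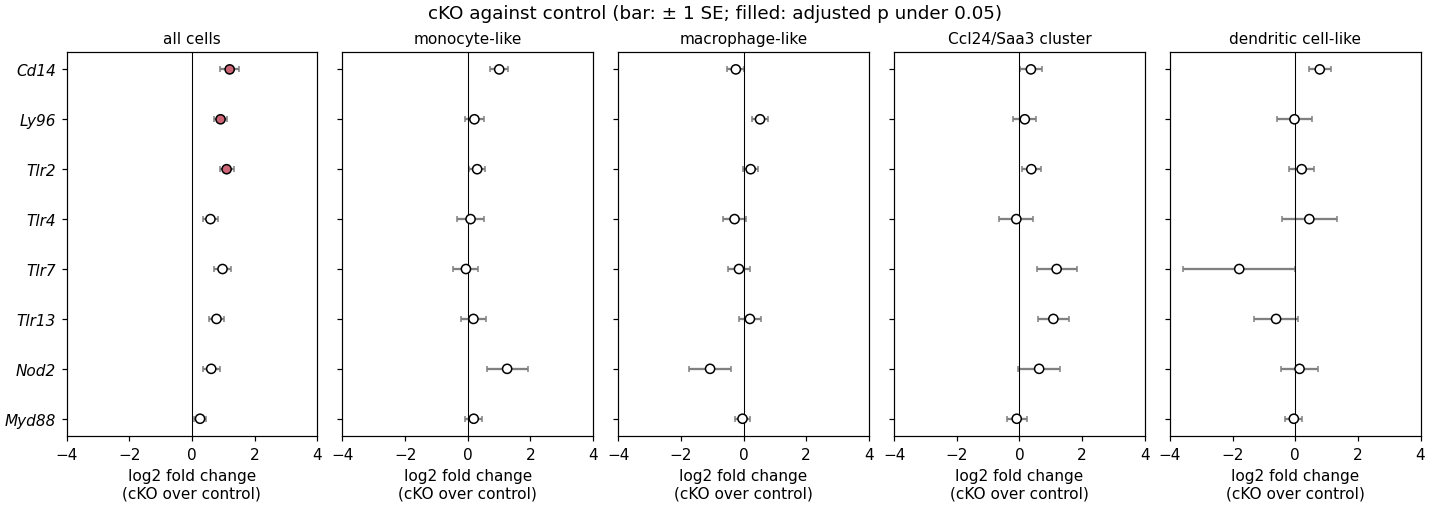
Log2 fold change of cKO over control (x axis) of 8 members (rows) in all cells summed and within 4 groups of cells, with bars of ± 1 SE from the edgeR fit and filled points where the adjusted p was under 0.05. The filled points of Cd14, Ly96 and Tlr2 in all cells summed have no filled counterpart within a group of cells.

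The share of single cells with a UMI was compared at equal depth. Cells of all mice of a condition were pooled, so these shares carry no spread between mice and are a description. Before thinning, cKO mouse 7 gave 225 of the 456 cKO monocyte-like cells, and it had the highest Cd14 level in them. After thinning each cell to 1000 UMIs, 37.9% of control and 63.6% of cKO monocyte-like cells had a Cd14 UMI, against 39.3% and 34.4% of macrophage-like cells (66.4%, 87.1%, 73.8% and 61.6% unthinned). In lymphoid-like cells, which should lack Cd14, thinned shares were 5.75% (control) and 1.11% (cKO), against 5.73% and 9.38% of dendritic cell-like cells. Median depths of control and cKO cells were 3912 and 5126 UMIs in monocyte-like, 4785 and 4372 UMIs in macrophage-like and 3574 and 3244 UMIs in lymphoid-like cells. For Tlr2 the thinned shares were 22.7% and 28.4% of monocyte-like and 12.2% and 11.9% of macrophage-like cells. For Ly96, Tlr4, Tlr7, Tlr13 and Nod2 the highest thinned share in any of the 6 groups was 6.15%, too low to compare. Thinning left out 6 control and 6 cKO monocyte-like cells and 60 control and 45 cKO macrophage-like cells.

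**Figure D4:**
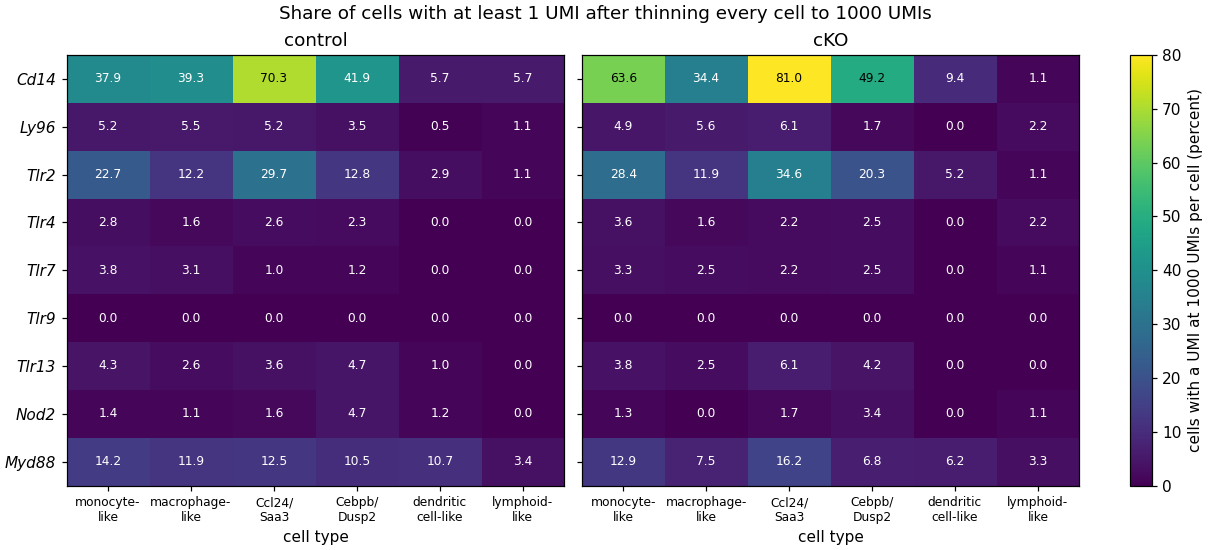
Percentage of cells with at least 1 UMI of a member (rows) after thinning every cell to 1000 UMIs, by group of cells (columns), in control (left) and cKO mice (right), with the value printed in each field. Cells of all mice of a condition were pooled. Cd14 in monocyte-like cells goes from 37.9 to 63.6 and in macrophage-like cells from 39.3 to 34.4.

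Other genes of the pathway were counted in lists of receptors, adaptors, negative regulators, LPS targets and interferon-stimulated genes. All these lists were chosen with earlier results of these data known, so their counts are a description and not independent support. Over all genes in all cells summed, 2.99% were called higher and 1.48% lower, and shares of a short list near these are not results about the list. Of 16 other receptors and accessory proteins tested, 2 rose and 1 fell, namely Nod1, a peptidoglycan sensor (1.23 ± 0.28), Slc15a3, an endolysosomal peptide transporter (1.04 ± 0.19), and Tlr12 (-1.26 ± 0.32, all SE). Of 22 adaptors and kinases 1 rose, the kinase Ikbke (1.21 ± 0.25, SE), and the median of the list was 0.22 beside -0.03 over all genes. Of 15 negative regulators 2 rose, the inhibitory receptor Cd300lf (1.34 ± 0.34) and the A20-binding protein Tnip1 (1.02 ± 0.26). None of the other genes of these 3 lists passed.

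The lists counted next were LPS-induced targets and interferon-stimulated genes, and the activity of the receptors was not measured. Of 18 LPS-induced targets tested, 5 rose and none fell in all cells summed, led by Acod1, the itaconate-producing enzyme (3.31 ± 0.62), and Clec4e, a lectin receptor (2.23 ± 0.46), with a list median of 1.37. Of 15 interferon-stimulated genes 13 rose, led by Ifi44 (4.34 ± 0.39) and Oas3 (3.08 ± 0.25), with a list median of 2.25. Their summed level was 666 to 986 CPM in control and 2522 to 3990 CPM in cKO mice, whereas the LPS-target list overlapped between groups, at 5727 to 12296 and 9551 to 24427 CPM, the highest again in cKO mouse 7.

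Within monocyte-like cells, where 0.952% of all genes were called higher and 0.317% lower, 6 of 18 LPS-induced targets rose, led by Saa3, an acute-phase protein (5.78 ± 1.08), and Acod1 (3.73 ± 0.72), and 8 of 15 interferon-stimulated genes rose, led by Ifi44 (4.98 ± 0.88, from 1 UMI in all control monocyte-like cells summed, so that its size depends on the prior count) and Irf7, a transcription factor of the interferon response (2.20 ± 0.35). Among the negative regulators Tnfaip3, the deubiquitinase A20 (1.72 ± 0.40), and Tnip1 (1.59 ± 0.37) were the largest of 3 that rose, Ikbke rose (1.91 ± 0.48), and Ly86, the partner of the receptor CD180, fell (-0.84 ± 0.21). Within macrophage-like cells, where 0.670% of all genes were called higher, 13 of 15 interferon-stimulated genes rose, led by Ifi44 (3.91 ± 0.50) and Irf7 (2.77 ± 0.33), and 0 of 18 LPS-induced targets passed, with a list median of 0.63 beside -0.09 over all genes. Whether the lists differ between the cell types was tested gene by gene. Here 0 of 18 LPS-induced targets and 0 of 15 interferon-stimulated genes passed, where 0.0353% of 11340 genes did. With so few calls over all genes, the 0 counts do not show that the lists are alike. The list medians of that difference were 1.28 and -0.69, beside 0.14 over all genes. List medians in monocyte-like and macrophage-like cells were 1.80 and 0.63 for LPS-induced targets and 1.24 and 2.37 for interferon-stimulated genes. Myd88, of the 5 members searched the one with an ISRE in its promoter window, was at 0.19 ± 0.27 in monocyte-like and -0.03 ± 0.25 in macrophage-like cells (edgeR adjusted p = 0.885 and 1). Summed immediate early and heat shock genes (9 genes listed after the values were seen) were 13754 to 15426 CPM in control (6 cells of control mouse 3 included) and 9185 to 11727 CPM in cKO monocyte-like cells, and their part in these results was not tested.

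Genes whose levels ran most alike to those of the members over the 40 sums of mouse and cell type were taken as the 3 with the highest correlation. The closest to Cd14 were Fcgr3, an Fc receptor (r = 0.97), Tpd52 (0.95) and Tgfbi (0.94). The closest to Tlr2 were the transcription factor Nfe2l2 (0.93), Sirpb1c (0.93) and Csf1r, the M-CSF receptor (0.92). Ly96 ran with the lysosomal proteases Ctsb (0.89) and Ctsd (0.83) and with Pla2g7 (0.84). Tlr7 ran with Trem3 (0.84), Apobec1 (0.83) and Lyz2, lysozyme (0.82), Tlr13 with Clta (0.82), Gm5150 (0.82) and the kinase Lyn (0.82), and Myd88 with Arpc5 (0.86), Stard3 (0.86) and D1Ertd622e (0.83). Between members the closest pair was Cd14 with Tlr2 (0.89), while Tlr4 with Cd14 stood at 0.52. These are Pearson correlations of log2(CPM + 1), without a test, over sums that share mice, libraries and depth.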

How the data were processed

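Per the methods of the study, reads were aligned to mm10 with STAR 2.5.3a within Cell Ranger 2.1.0 (Ensembl release 84 annotation), and the authors deposited raw UMI counts per gene and cell, all mice merged without down-sampling. Cells were kept with log10 UMIs of at least 2.8, log10 genes of at least 2.6, at most 5% mitochondrial UMIs and no hemoglobin UMI. Pooled size factors, denoised components and Ward clustering into 9 clusters used scran 1.30.0 without the members and the listed genes. Doublets (Scrublet, scanpy 1.11.5) were kept. Counts were summed per mouse, or per mouse and cell type from 20 cells (40 sums), genes kept with a CPM above 1 in at least 3 sums and a UMI in at least 20 cells, and fitted with edgeR 4.0.16 (TMM, quasi-likelihood; R 4.3.3), Benjamini-Hochberg over all genes, threshold 0.05. Single values used exact permutation or sign-flip tests. Depth was 497531 to 3762314 UMIs per mouse; intervals cover counting error only. Fits were tested on simulated data. DESeq2 1.42.0 and limma 3.58.1 were alternatives. Members and lists were chosen with earlier results of these data known. Genes named are all members, Slc3a2, of each list the 2 largest rises and falls past the threshold (all cells, monocyte-like, macrophage-like) and the 3 genes most alike to each member of at least 20 CPM.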

Additional observations from a re-analysis of the deposited data

Results flagged for a closer look

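Of 53 groups of 4 mice checked, 6 had a mouse whose gap to the nearest other mouse exceeded Dixon's 95% critical value, where chance flags about 1 in 20 groups. In all cells summed, Cd14 was 2009 CPM in cKO mouse 7, with the other cKO mice at 858 to 1009 CPM. Tlr2 was 358 CPM in the same mouse, with the others at 207 to 225 CPM. Ly96 was 41.7 CPM in cKO mouse 6, below the others at 57.3 to 60.3 CPM. In monocyte-like cells, Tlr13 was 0 CPM in cKO mouse 5, which held 20 such cells, with the others at 41.7 to 49.0 CPM. Tlr9 was 1.70 CPM in control mouse 3 over all cells and 0.860 CPM in monocyte-like cells of cKO mouse 7, and each of these values is 1 UMI. Without cKO mouse 7, Cd14 had an adjusted p of 0.116 and Tlr2 of 0.0435 (edgeR).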

How the results depend on the processing

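In all cells summed, 3 members were called in the fit reported. The count was 0 without dendritic, lymphoid and stromal cells, 0 with levels standardized to one mix of cell types (by exact permutation tests of 4 against 4 mice, another test than edgeR, with Cd14 and Ly96 still 1.30 and 1.31 times higher in cKO mice), 0 with one cKO term over cell types (limma-voom) and 1 without both mice under 100 cells, and it ran from 0 to 4 when single mice were left out. Within cell types the count was 0 in the fit reported and 1 (Cd14 in monocyte-like cells) without the filter on low counts, with limma-voom, with cell types fitted alone and without doublets, and 0 to 1 with single mice left out, where an arm of a single mouse is assumed to vary like the other groups. For the difference of the cKO effect it was 1 (Cd14) without the filter on low counts. Between monocyte-like and macrophage-like cells it was 1 with control mice only, where Nod2 turned to a log2 difference of -0.026, and 2 to 4 with single mice left out. With a pseudocount of 10 CPM, 3 of the 54 ordered differences changed sign, and the number of mice is too small for the 0 calls to speak of stability. Of 1270 member values under alternatives, 1221 kept their side of the threshold, and 103 changed sign, of which 1 had been called (Nod2). Over all genes the calls ran from 155 to 787 in all cells (510 as reported), from 48 to 265 in monocyte-like cells (144), from 52 to 180 in macrophage-like cells (101), from 28 to 136 in the Ccl24/Saa3 cluster (63), from 1 to 39 in the Cebpb/Dusp2 cluster (11), from 13 to 100 in dendritic cell-like cells (36), from 2 to 68 in lymphoid-like cells (7), from 0 to 55 for the difference of effects (4) and from 1140 to 2417 between monocyte-like and macrophage-like cells (2243). Library sizes without TMM moved the median of all genes from -0.03 to -0.13 in all cells, and Cd14 then had an adjusted p of 0.0536. No paired analysis of control with cKO mice was possible because the labels give no pairs or litters. Unnamed clusters of the clusterings on all genes and by graph were not matched to the Ccl24/Saa3 and Cebpb/Dusp2 clusters, although 1 of them (310 cells, all genes) was led by Ccl24, Cebpb and Dusp2, so values for these were not run there. The standardized mix, the single cKO term, the fit without TMM and the fits without or within single macrophage-like clusters were chosen after seeing the data. The cause of these changes was not tested. Depth limits Tlr9 (15 UMIs) and Nod2 within cell types.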
